A study of Mus musculus with 16 samples.

Results

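The genes described here are 47 mouse genes of the Wnt pathway, which carries signals between neighbouring cells. They were chosen by symbol among the 21936 protein-coding genes in a table of 55487 gene identifiers. The rule holds no measured value, but it was set with earlier results of these data known. They comprise 19 Wnt ligands, 4 R-spondins, 3 LGR receptors, 10 Frizzled receptors and 2 LRP co-receptors. The other members are the 2 membrane ubiquitin ligases Rnf43 and Znrf3, 3 Dickkopf genes, the 2 axins and the 2 transcription factor genes Tcf7 and Lef1. Expression was measured by RNA sequencing of 16 samples of cultured mouse breast organoids, in which epithelial cells grow as small clusters. WT organoids (n = 3) came from normal breast. Organoids labelled as carrying a PIK3CA mutation (n = 4), a HER2 mutation (n = 4) or both mutations (n = 5, double mutants) came from breast tumors. The series title gives the alleles as HER2 V777L and PIK3CA H1047R, and its question is how these mutations act on the cell cycle and on tumor growth. Mouse Erbb2 encodes HER2, a tyrosine kinase receptor at the cell surface, and PIK3CA encodes the catalytic subunit of a phosphoinositide 3-kinase. All 16 samples were grown in a medium that held murine epidermal growth factor at 50 ng/ml and 10% of a medium conditioned with Rspo1 and Noggin, so every genotype received an R-spondin from outside. How the mutations were introduced, which cells carried them and how many mice were used are not given in the sources used here. Genotype and tissue source cannot be told apart in any comparison with WT. Nothing states that replicates came from separate animals, so the p-values below measure the spread between these samples, which may be technical.

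Wnt ligands are secreted, lipid-modified proteins that bind a Frizzled receptor together with the co-receptor Lrp5 or Lrp6. In the canonical branch, this stabilises beta-catenin, which joins TCF/LEF factors in the nucleus and switches on target genes, among them the feedback inhibitor Axin2. Rnf43 and Znrf3 remove Frizzled receptors from the cell surface, and an R-spondin bound to an LGR receptor blocks that removal. In the mammary gland, Wnt signals are known to maintain basal stem cells, and Wnt4 and Rspo1 are known as paracrine factors made in response to steroid hormones.

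Libraries held 45545182 to 64168308 counts in all, and 3 counts corresponded to 0.0477 to 0.0668 CPM, the usual unit of counts scaled by library size, taken here as the smallest detected level. Erbb2 was at 145 to 171 CPM in WT, 149 to 188 in PIK3CA mutants, 2696 to 4632 in HER2 mutants and 1499 to 2751 in double mutants. Pik3ca was at 75.9 to 85.7, 91.6 to 111, 61.4 to 74.1 and 109 to 122 CPM in the same order. Markers of luminal epithelium (Krt8, Krt18, Krt19, Epcam, Cldn3 and Cldn4) summed to between 1569 and 4877 CPM, so this epithelium was present in every sample. The 9 macrophage markers summed to 536 to 3225 CPM in WT, 14.5 to 37.2 in PIK3CA mutants, 9.58 to 199.9 in HER2 mutants and at most 67.7 in double mutants. The 8 fibroblast markers summed to 373 to 2001 CPM in WT and to 113 to 540, 42.4 to 642 and 51.1 to 183 CPM in the mutants in that order. Every WT sample was above every mutant in the macrophage sum, while the lowest WT fibroblast sum was within the range of PIK3CA and HER2 mutants, and their part in the Wnt gene differences against WT was not tested. In bulk RNA, fewer cells of a type and less RNA per cell cannot be told apart.

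Sequences are shown for the start regions of 4 genes whose levels differed between the HER2 mutants and another mutant genotype, namely the ligands Wnt7a, Wnt16 and Wnt5b and the receptor Lgr4. Each is the 250 bases before a transcription start in RefSeq (build GRCm38.p6), read 5′ to 3′ on the strand of the gene. Wnt7a, Wnt16 and Lgr4 were each higher in HER2 mutants than in both other mutant genotypes, and Wnt5b was lower in double than in HER2 mutants. The regions are chr6:91411354-91411603 on the minus strand for Wnt7a, chr6:22287977-22288226 on the plus strand for Wnt16, chr2:109917397-109917646 on the plus strand for Lgr4 and chr6:119449387-119449636 on the minus strand for 1 of the starts of Wnt5b. Capitals mark a TCF/LEF core motif, which occurred at the printed start of Wnt5b and at none of its other starts found.
Wnt7a: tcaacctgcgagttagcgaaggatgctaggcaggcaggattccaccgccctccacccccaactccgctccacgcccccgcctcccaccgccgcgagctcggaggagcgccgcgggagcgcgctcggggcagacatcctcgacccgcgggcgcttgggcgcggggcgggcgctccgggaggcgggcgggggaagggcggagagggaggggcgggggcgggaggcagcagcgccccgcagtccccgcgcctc
Wnt16: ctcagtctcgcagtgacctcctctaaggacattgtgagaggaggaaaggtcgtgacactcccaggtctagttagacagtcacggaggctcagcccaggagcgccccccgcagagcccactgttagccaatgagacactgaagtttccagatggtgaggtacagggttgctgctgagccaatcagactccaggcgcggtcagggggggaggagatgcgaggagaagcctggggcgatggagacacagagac
Lgr4: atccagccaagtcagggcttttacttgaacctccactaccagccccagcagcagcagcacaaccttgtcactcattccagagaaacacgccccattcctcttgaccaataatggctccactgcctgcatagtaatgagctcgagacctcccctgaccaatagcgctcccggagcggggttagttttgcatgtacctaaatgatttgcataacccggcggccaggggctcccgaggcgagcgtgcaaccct
Wnt5b: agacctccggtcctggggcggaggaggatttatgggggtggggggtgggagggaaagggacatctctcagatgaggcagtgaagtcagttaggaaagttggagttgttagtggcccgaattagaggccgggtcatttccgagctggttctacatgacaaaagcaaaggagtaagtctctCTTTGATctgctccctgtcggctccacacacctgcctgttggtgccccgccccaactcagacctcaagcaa
The Wnt7a region had a G and C content of 77.6% with 34 CG dinucleotides, that of Wnt16 59.2% with 9, that of Lgr4 55.6% with 10 and that of Wnt5b 55.6% with 7. The TCF/LEF core was searched as ATCAAAG or AACAAAG on both strands. It occurred in 2648 of all 32851 RefSeq start regions of this length (8.06%) and in 4 of the 39 regions found for 31 of the 47 genes. Those 4 regions belonged to Dkk1, Fzd7, Wnt11 and Wnt5b. The AP-1 motif TGANTCA was in 6.75% of all regions and the STAT motif TTCNNNGAA in 7.02%, and each occurred in 1 member region, at 2 other starts of Wnt5b. None of these motifs occurred in the regions of Wnt7a, Wnt16 or Lgr4. A match describes letters in a window and does not show that a factor binds there.

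The highest levels among the members were those of a few receptors and co-receptors. Levels of different genes are compared here as CPM per kilobase of exon. In WT organoids the highest member was Fzd7, a Frizzled receptor known from mammary stem cells, at a mean of 99.2 CPM per kilobase. Lrp5 followed at 60.4 and Lrp6 at 26.0 CPM per kilobase. Among the R-spondin receptors of WT organoids, Lgr6 had 23.2 and Lgr4 20.2 CPM per kilobase. The highest Wnt ligand in WT was Wnt5b, a ligand mostly linked to non-canonical signalling, at 22.8 CPM per kilobase. In HER2 mutants the highest ligand was Wnt7b, a ligand of luminal and invasive mammary cells, at 25.2 CPM per kilobase. Most ligands were far lower: 5 of the 19 Wnt genes (Wnt1, Wnt2, Wnt3, Wnt3a and Wnt8a), Rspo2 and Dkk1 had too few counts to be tested. Their highest levels in any sample were 0.231 CPM for Wnt1, 0.217 for Wnt2, 0.28 for Wnt3, 0.0834 for Wnt3a, 0.122 for Wnt8a, 0.601 for Rspo2 and 0.0874 for Dkk1. Canonical ligands that are widely used in culture, such as Wnt3a, were therefore near the smallest detectable level in every genotype.

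**Figure D1:**
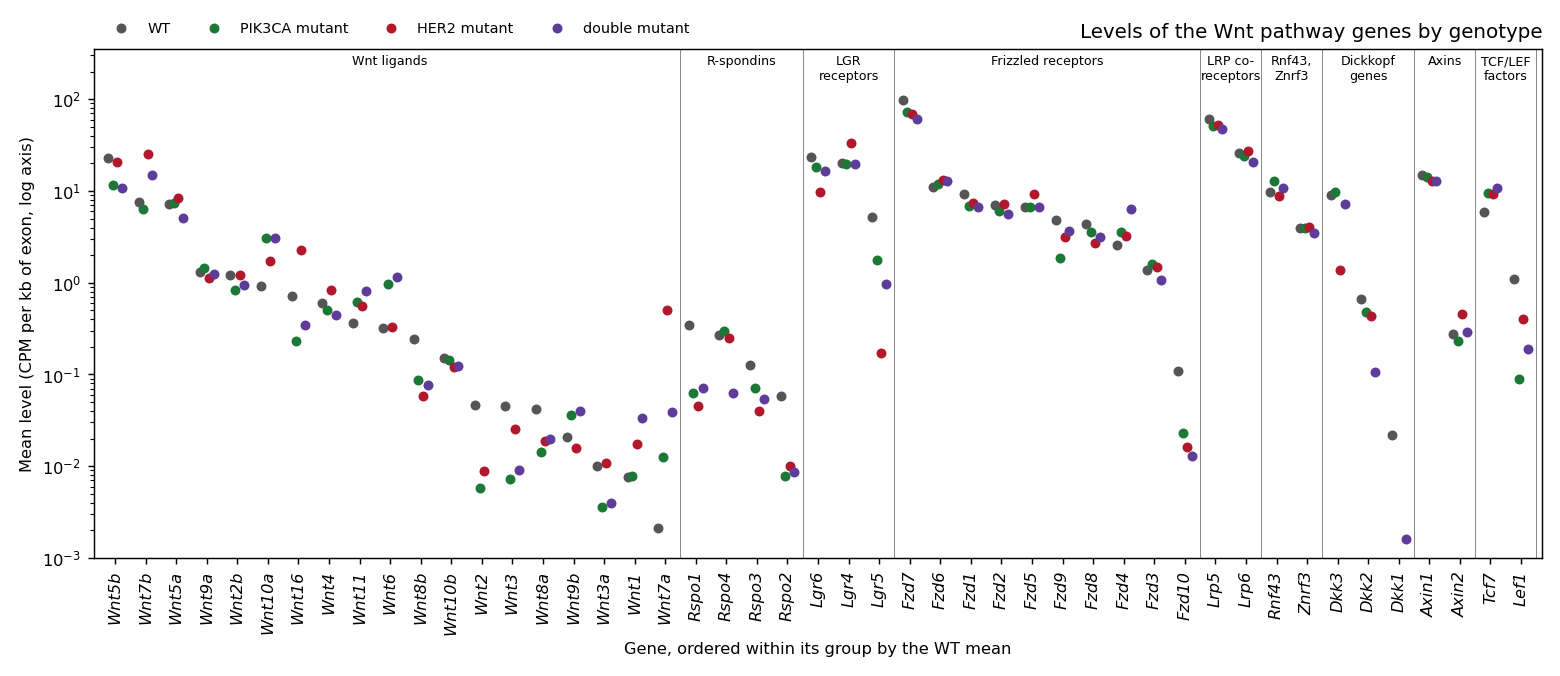
Mean level of each of the 47 genes in each genotype (y axis, CPM per kilobase of exon, log axis), with genes grouped by role and ordered by the WT mean within each group (x axis). Fzd7, Lrp5 and Lrp6 lead in WT, Wnt7b and Wnt7a are highest in HER2 mutants, and 3 means of 0 (Dkk1 in PIK3CA and HER2 mutants, Wnt2 in double mutants) cannot be drawn on a log axis.

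Most of the tested genes were called in no comparison of genotypes. Of the 47 members, 40 had enough counts to be tested with edgeR's quasi-likelihood test, with p-values adjusted after Benjamini and Hochberg over all 24252 genes tested and called under 0.05. Rises and falls below are on the log2 scale unless a fold is given. In PIK3CA mutants against WT 1 member was called, 2.5% of those tested, and it was lower, where 4.52% of all tested genes were called (1.49% higher and 3.03% lower). In HER2 mutants against WT 6 members were called, 15% of those tested, with 3 higher and 3 lower, against 10.4% of all genes (4.75% higher and 5.63% lower). In double mutants against WT 5 were called, 12.5%, with 2 higher and 3 lower, against 11.8% of all genes (5.03% higher and 6.72% lower). Double against HER2 mutants also gave 5 calls, 12.5%, with 1 higher and 4 lower, against 2.5% of all genes (1.03% higher and 1.47% lower). HER2 against PIK3CA mutants gave 6 calls, 15%, with 4 higher and 2 lower, against 4.41% of all genes (2.21% higher and 2.2% lower). No member was called between double and PIK3CA mutants, where 0.672% of all genes were (0.309% higher and 0.363% lower). That count of 0 was also given by DESeq2 and limma, and 3 members had an unadjusted edgeR p under 0.05. A member that was tested because it was high in a single genotype was bound to differ, so these shares describe the genes and test nothing about the list. The comparisons with WT share the 3 WT samples, and the pairs share mutant samples in the same way.

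In all, 10 members were called in at least 1 of the 6 pairs and 30 tested members in none. Of the 23 calls, 17 were in pairs that include the HER2 mutant. Over all tested genes, these pairs gave 2518 (HER2 against WT), 606 (double against HER2) and 1069 calls (HER2 against PIK3CA). The other pairs gave 1096 (PIK3CA against WT), 2850 (double against WT) and 163 calls (double against PIK3CA). In 22 of the 23 member calls every sample of one genotype lay above every sample of the other, and the exception was Wnt5b between double and HER2 mutants. How many of all called genes separate in this way, or are called in at least 1 pair, was not counted. These counts therefore describe the members only. The median log2 fold change over the 40 tested members was -0.16 in PIK3CA mutants, -0.12 in HER2 mutants and -0.35 in double mutants against WT. Over all tested genes the medians were -0.03, 0.03 and 0.01 in the same order. The interaction sets the change in double mutants against the sum of the changes in both single mutants on the log2 scale. For the interaction, edgeR called no member, where 1.06% of all genes were called (0.515% positive and 0.544% negative), although 7 members had an unadjusted p under 0.05. DESeq2 called 4 members and limma 0 for the interaction.

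**Figure D2:**
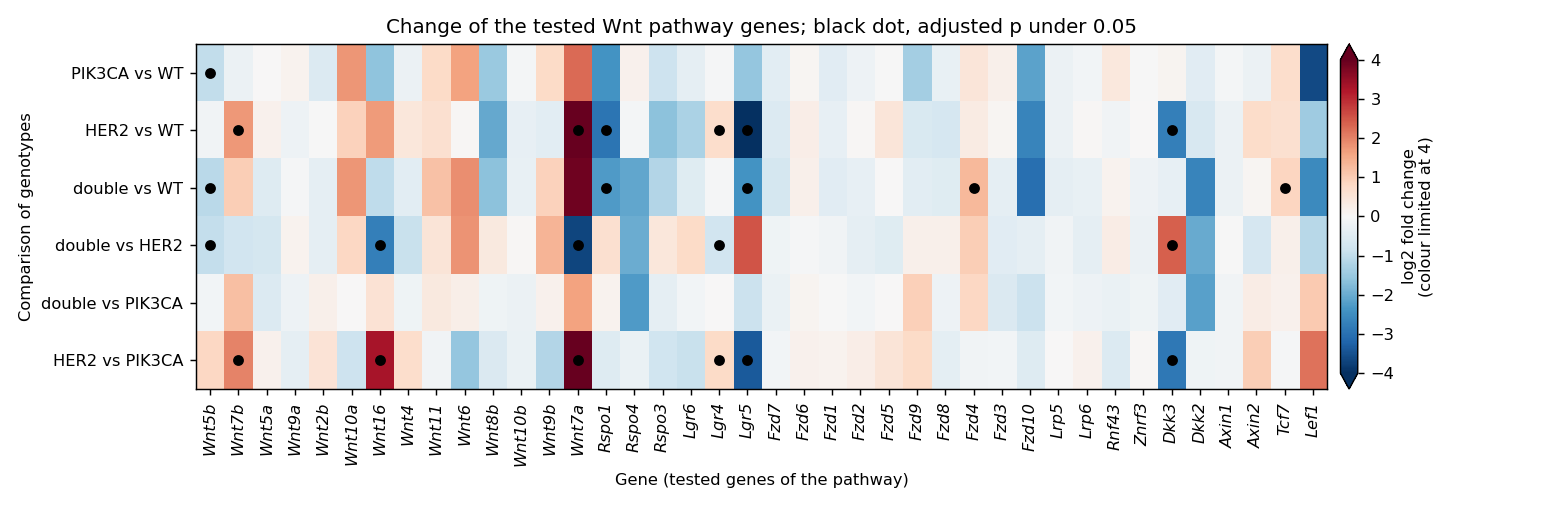
Log2 fold change of the 40 tested members (x axis) in each of the 6 comparisons of genotypes (y axis), with red higher and blue lower in the genotype named first, the colour limited at 4, and a black dot for an adjusted p under 0.05. The dots cluster in the comparisons with HER2 mutants, at Wnt7a, Lgr4, Lgr5 and Dkk3, and the double against PIK3CA mutant line holds none.

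Among the ligands, Wnt7a, Wnt7b and Wnt16 were called higher in HER2 than in PIK3CA mutants, with limits that differ by gene and are given below. Wnt16 was not called against WT. Wnt5b was called lower in PIK3CA and double mutants than in WT. Of the 14 ligands tested, 2 rose in HER2 mutants against WT and none fell. Wnt7a (chromosome 6, 91363981 to 91411363 in GRCm38) had 0, 1 and 0 counts in WT and 21, 51, 178 and 51 counts in HER2 mutants. Its level was 0.396, 0.983, 3.96 and 1.04 CPM in HER2 mutants and 0, 0.0826, 0.0221 and 0.0536 CPM in PIK3CA mutants. In double mutants Wnt7a was at 0, 0.315, 0.0393, 0.0369 and 0.233 CPM. Every HER2 mutant thus lay above every other sample, while WT, PIK3CA and most double mutant samples were near or below the smallest detectable level. Wnt7a had enough counts to be tested only through the HER2 mutants. A difference was therefore bound to appear, and the p-values of Wnt7a below are no separate support for it. The summed counts of HER2 mutants over WT, scaled for depth, gave a ratio of 253 with an exact 95% counting interval of 45.1 to 10000. The fitted log2 fold change of Wnt7a against WT was 7.56 (SE 1.5 and adjusted p 0.0061 in edgeR), a value that depends on the prior count because WT held a single read. Against PIK3CA mutants it was 5.29 (SE 1.09 and adjusted p 0.0134 in edgeR), and neither call was lost under any alternative. Without HER2 mutant replicate 3, the highest sample, these values were 6.58 and 4.31, and without WT replicate 2, the sample with the single read, the first was 9.39. In double against HER2 mutants Wnt7a fell by 3.67 on the log2 scale (SE 0.88 and adjusted p 0.0401 in edgeR). That call was lost in 12 alternatives, with an adjusted p of up to 0.159, and without HER2 mutant replicate 3 the value was -2.69 (adjusted p 0.0981). Single removals of each WT replicate, of PIK3CA mutant replicates 2, 3 and 4 and of double mutant replicates 1, 3, 4 and 5 also ended it.

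Wnt16 (chromosome 6, 22288227 to 22298522), a ligand known from skin and bone, also had its highest levels in HER2 mutants. It was at 4.56, 1.94 and 2.77 CPM in WT, 1.97, 0.785, 0.399 and 0.893 in PIK3CA mutants, 11.1, 4.34, 5.50 and 19.0 in HER2 mutants and 1.42, 1.57, 1.2, 2.01 and 1.36 in double mutants. All HER2 mutants lay above all PIK3CA and double mutants, whereas the lowest HER2 mutant was just below the highest WT sample. Wnt16 rose by 3.29 on the log2 scale in HER2 against PIK3CA mutants (SE 0.52 and adjusted p 0.00313 in edgeR). In double against HER2 mutants it fell by 2.72 (SE 0.46 and adjusted p 0.00758 in edgeR). No alternative ended either call. Against WT the log2 fold change of Wnt16 was 1.69 in HER2 mutants (SE 0.54 and adjusted p 0.0563 in edgeR), -1.60 in PIK3CA mutants (adjusted p 0.102) and -1.03 in double mutants (adjusted p 0.184), and none was called.

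Wnt7b (chromosome 15, 85535437 to 85582473) spread widely among HER2 and double mutants. Its levels were 42.7, 38.2 and 30.9 CPM in WT, 26.7, 32.0, 30.05 and 37.2 in PIK3CA mutants, 45.8, 160.5, 207.7 and 79.8 in HER2 mutants and 25.7, 129.8, 112.7, 49.4 and 48.3 in double mutants. HER2 mutants ranged from barely above WT to several times the WT level, and double mutants spanned both. Wnt7b rose by 1.73 in HER2 mutants against WT (3.31-fold, SE 0.52 and adjusted p 0.0466 in edgeR) and by 1.97 against PIK3CA mutants (SE 0.48 and adjusted p 0.0294 in edgeR). The call against WT was lost without any single WT or PIK3CA mutant replicate, without HER2 mutant replicate 2 or 3 or double mutant replicate 4 or 5, with adjusted p between 0.0526 and 0.185. It was also lost in 4 other settings, and the call against PIK3CA mutants was lost without any PIK3CA mutant replicate, without HER2 mutant replicate 2 or 3 and with a replicate block (the replicate number as a term of the fit), with adjusted p of up to 0.0911. In double mutants the log2 fold change against WT was 0.97 (edgeR adjusted p 0.219). An exon of Wnt7b overlaps the antisense gene AU022754 in GENCODE M21, and reads of both cannot be told apart unless counting used strand, which is not stated. Exons of Axin2, Wnt11, Rspo3, Wnt5a, Fzd6, Lef1 and Fzd5 also overlap another annotated gene, with the same limit.

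Wnt5b (chromosome 6, 119432531 to 119544347) was the only member called in PIK3CA mutants against WT. Its levels were 71.4, 51.4 and 58.8 CPM in WT, 29.8, 29.9, 37.5 and 25.3 in PIK3CA mutants, 29.6, 55.2, 57.4 and 76.2 in HER2 mutants and 35.1, 24.5, 22.8, 25.7 and 34.2 in double mutants. PIK3CA and double mutants lay below all WT samples, and HER2 mutants spanned both ranges because replicate 1 stood at 29.6 CPM. Wnt5b fell by 0.98 in PIK3CA mutants (SE 0.25 and adjusted p 0.0349 in edgeR) and by 1.09 in double mutants (SE 0.24 and adjusted p 0.00719 in edgeR) against WT. In HER2 mutants its log2 fold change was -0.15 (SE 0.25, 95% interval -0.64 to 0.35, edgeR adjusted p 0.755). In double against HER2 mutants it fell by 0.94 (SE 0.22 and adjusted p 0.0381 in edgeR). The call in PIK3CA mutants was lost without WT replicate 1 or 3 or PIK3CA mutant replicate 1, 2 or 4 (adjusted p between 0.091 and 0.162), and in 3 other settings. The call in double mutants against WT was lost in 1 alternative, the replicate block with the GC and length correction (-1.04, adjusted p 0.0659). That of double against HER2 mutants was lost in 15 alternatives (adjusted p of up to 0.188), among them the removal of WT replicate 3, PIK3CA mutant replicate 1 or 2, HER2 mutant replicate 2, 3 or 4 or double mutant replicate 2, 3, 4 or 5.

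Other ligands were not called in any pair. Wnt4, the ligand induced by progesterone in the mammary gland, was at 2.85, 2.90 and 1.77 CPM in WT, 2.75, 2.02, 1.24 and 2.41 in PIK3CA mutants, 5.64, 3.55, 1.87 and 2.76 in HER2 mutants and 1.28, 0.839, 3.26, 2.09 and 1.91 in double mutants. All genotypes of Wnt4 overlapped, and its log2 fold changes against WT were -0.25 (95% interval -1.10 to 0.61), 0.46 (-0.40 to 1.326) and -0.42 (-1.23 to 0.39) in PIK3CA, HER2 and double mutants. Wnt5a, a non-canonical ligand known to restrain mammary duct growth, was at 53.0, 79.4 and 38.8 CPM in WT, 53.8, 56.6, 68.0 and 53.2 in PIK3CA mutants, 113, 25.9, 40.5 and 80.2 in HER2 mutants and 20.9, 20.5, 83.9, 28.8 and 45.2 in double mutants. The Wnt5a values of HER2 and double mutants spread more widely than those of WT and PIK3CA mutants. Its log2 fold changes against WT were 0.02, 0.19 and -0.52 in that order (edgeR adjusted p 0.989, 0.852 and 0.523), with 95% intervals of -0.95 to 0.99, -0.79 to 1.16 and -1.43 to 0.40. The direction of the first 2 is not fixed: it turned under some alternatives, whose values stand under the processing alternatives. Wnt6 (chromosome 1, 74771892 to 74785322) and Wnt10a (74791516 to 74804179) are neighbours on the same strand. Wnt6 averaged 0.707 ± 0.275 CPM (SD, n = 3) in WT, 2.14 ± 1.4 in PIK3CA mutants (n = 4), 0.721 ± 0.833 in HER2 mutants (n = 4) and 2.54 ± 1.75 in double mutants (n = 5). Wnt10a averaged 2.25 ± 1.87, 7.58 ± 3.68, 4.27 ± 4.86 and 7.62 ± 2.48 CPM in the same order. For both genes all double mutants lay above all WT samples, but neither was called (log2 fold change 1.85 for Wnt6 and 1.76 for Wnt10a, edgeR adjusted p 0.129 and 0.176). These neighbours were singled out after their values were seen. The other 6 tested ligands were Wnt2b, Wnt8b, Wnt9a, Wnt9b, Wnt10b and Wnt11. The highest of them in any sample was Wnt11 at 9.48 CPM, followed by Wnt9a at 8.98 and Wnt2b at 8.13 CPM. The nearest to a call was Wnt8b, at most at 1.85 CPM, which differed by -2.03 between HER2 mutants and WT (adjusted p 0.0569 in edgeR), and Wnt11 had log2 fold changes of 0.78, 0.65 and 1.16 against WT (adjusted p 0.366 or more).

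**Figure D3:**
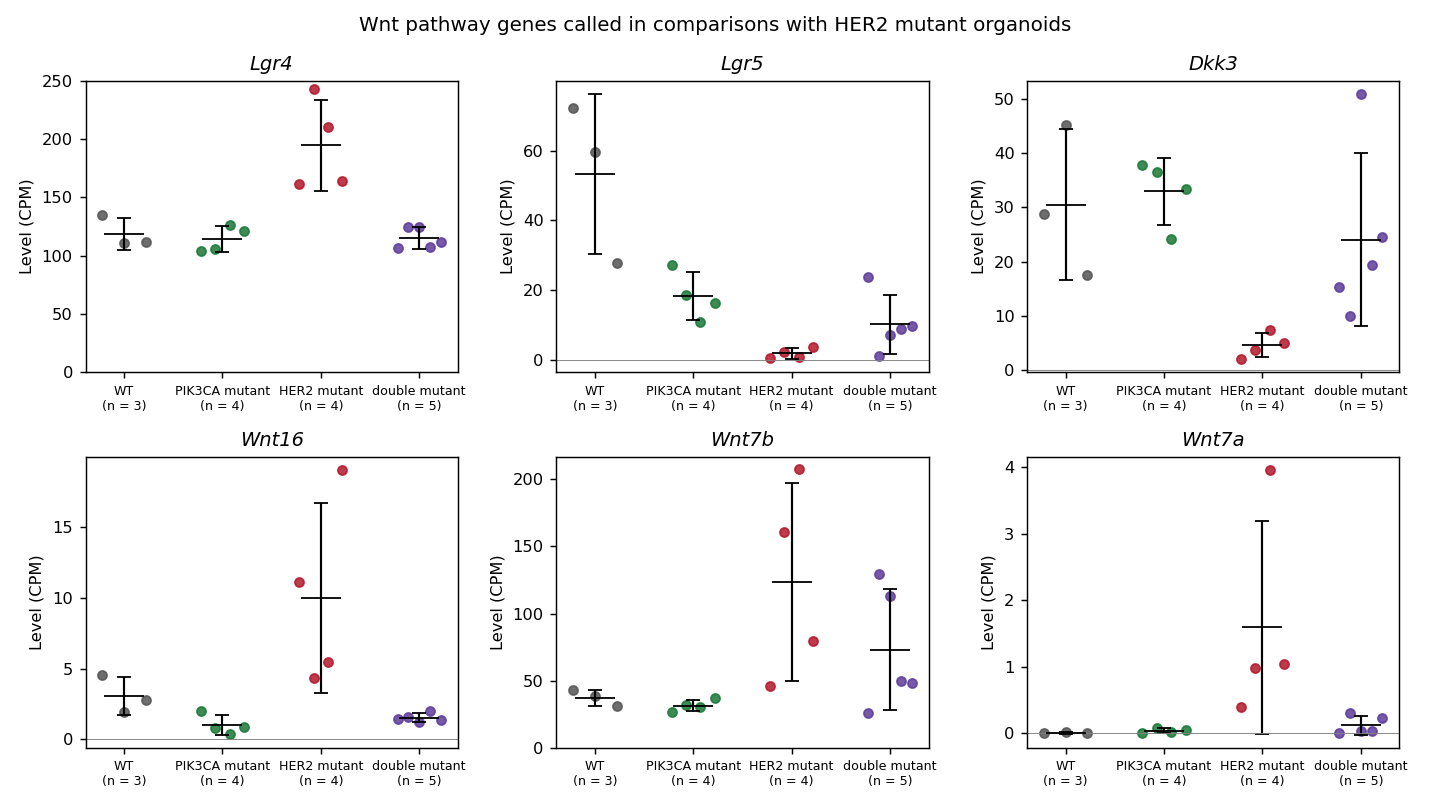
Level of 6 members in every sample (points, y axis, CPM, linear), with the mean (long bar) and SD (error bar) of each genotype (x axis, n under each name). In the 4 HER2 mutants, Lgr4 and Wnt7a are above and Dkk3 is below every other sample. Wnt16 has its highest and Lgr5 its lowest mean in HER2 mutants, but Wnt16 overlaps WT and Lgr5 overlaps double mutants. Wnt7b varies among HER2 and double mutants.

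The R-spondin receptors moved in opposite directions in HER2 mutants: Lgr4 rose and Lgr5 fell. Lgr4 (chromosome 2, 109917647 to 110014257), the most broadly expressed of the 3 receptors in most tissues, was at 135, 111 and 111 CPM in WT and at 104, 106, 127 and 121 CPM in PIK3CA mutants. In HER2 mutants it was at 161, 243, 211 and 164 CPM, and in double mutants at 107, 125, 125, 107 and 112 CPM. The 4 HER2 mutants lay above the other 12 samples, which shared the range of 104 to 135 CPM. Lgr4 rose by 0.71 against WT (1.64-fold, SE 0.15 and adjusted p 0.00909 in edgeR) and by 0.77 against PIK3CA mutants (SE 0.14 and adjusted p 0.00728 in edgeR). In double mutants it fell by 0.76 against HER2 mutants (SE 0.13 and adjusted p 0.00806 in edgeR), and its log2 fold change against WT was -0.05 (95% interval -0.32 to 0.23). The interaction estimate of -0.70 was not called (SE 0.20 and adjusted p 0.106 in edgeR). The call against WT was lost without WT replicate 3 (adjusted p 0.0626) and in a fit restricted to both genotypes (0.0811). That of double against HER2 mutants was lost in such a fit (0.0812) and with a replicate block (0.0557, and 0.0665 with a correction for GC content and length).

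Lgr5 (chromosome 10, 115450311 to 115587780), a marker of stem cells in several epithelia and itself a target of beta-catenin, showed the lowest levels in HER2 mutants. It was at 72.3, 59.6 and 27.7 CPM in WT, 27.2, 18.4, 10.7 and 16.2 in PIK3CA mutants, 0.377, 2.2, 0.690 and 3.73 in HER2 mutants and 23.8, 1.11, 7.09, 8.87 and 9.51 in double mutants. All mutant samples lay below all WT samples, and all HER2 mutants below all PIK3CA mutants. Against WT, Lgr5 fell by 4.93 in HER2 mutants (30.4-fold lower, SE 0.84 and adjusted p 0.00261 in edgeR), and no alternative ended that call. Without HER2 mutant replicate 4 the value was -5.60. In double mutants Lgr5 fell by 2.40 against WT (SE 0.70 and adjusted p 0.0363 in edgeR), a value of -3.00 without double mutant replicate 1. Between HER2 and PIK3CA mutants Lgr5 fell by 3.37 (SE 0.77 and adjusted p 0.0222 in edgeR), or -4.05 without HER2 mutant replicate 4. The last call was lost without PIK3CA mutant replicate 1 or 2 or HER2 mutant replicate 3 (adjusted p 0.0503 to 0.0615). The call in double mutants was lost without any WT replicate, PIK3CA mutant replicate 2 or double mutant replicate 3, 4 or 5 (adjusted p 0.0521 to 0.138) and with a replicate block (0.0598, and 0.061 with the GC and length correction). In PIK3CA mutants against WT the log2 fold change of Lgr5 was -1.55 (SE 0.74 and adjusted p 0.307 in edgeR), and a fit restricted to both genotypes called it (adjusted p 0.0206). The interaction estimate was 4.08 (SE 1.03 and adjusted p 0.0739 in edgeR). Lgr6, a receptor of myoepithelial progenitors, averaged 159 ± 44.2 CPM (SD, n = 3) in WT, 124 ± 30.9 in PIK3CA mutants (n = 4), 66.2 ± 34.7 in HER2 mutants (n = 4) and 114 ± 37.5 in double mutants (n = 5). Its log2 fold change in HER2 mutants against WT was -1.26 (SE 0.40 and adjusted p 0.0589 in edgeR), with every HER2 mutant below every WT sample.

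R-spondins themselves were weakly expressed, in cultures that were supplied with Rspo1 protein. Rspo1 had 20, 28 and 66 counts in WT, 15, 5, 1 and 7 in PIK3CA mutants, 1, 5, 8 and 3 in HER2 mutants and 13, 11, 3, 3 and 6 in double mutants. In CPM this was 0.350, 0.560 and 1.10 in WT and at most 0.239 in any mutant sample, so the WT samples stood apart from all mutants. Rspo1 fell by 2.91 in HER2 mutants (SE 0.74 and adjusted p 0.0225 in edgeR) and by 2.26 in double mutants (SE 0.66 and adjusted p 0.0367 in edgeR) against WT. In PIK3CA mutants the log2 fold change was -2.40 (SE 0.71 and adjusted p 0.072 in edgeR), which DESeq2, a fit restricted to both genotypes and the removal of HER2 mutant replicate 1 called (adjusted p 0.0256, 0.0329 and 0.0483). The call in HER2 mutants was lost without WT replicate 3 (-2.34, adjusted p 0.143) and in 3 other settings. That in double mutants was lost in 11 alternatives (adjusted p of up to 0.248), including the removal of WT replicate 2 or 3, PIK3CA mutant replicate 2 or double mutant replicate 3, 4 or 5. Fibroblast and macrophage markers also fell: 2 of 8 and 6 of 9 were called lower in HER2 mutants against WT, and 6 of 8 and 8 of 9 in double mutants. In PIK3CA mutants 1 of 8 and 8 of 9 were called lower. Of all tested genes, 5.63%, 6.72% and 3.03% were called lower in HER2, double and PIK3CA mutants. Among WT replicates 1, 2 and 3, with Rspo1 at 0.350, 0.560 and 1.10 CPM, the fibroblast sums were 373, 2001 and 1698 CPM and the macrophage sums 1402, 536 and 3225 CPM. The part of fibroblasts and macrophages in the Rspo1 result was not tested. Rspo3 and Rspo4 were at a mean of 0.389 ± 0.117 and 0.635 ± 0.756 CPM (SD, n = 3) in WT and were not called in any pair.

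Of the receptors and co-receptors, the 10 Frizzled genes gave a single call, and neither Lrp5 nor Lrp6 was called. Fzd4 (chromosome 7, 89404355 to 89413134), a receptor that also binds Norrin, was at 21.4, 13.6 and 17.5 CPM in WT, 19.6, 21.8, 24.4 and 31.4 in PIK3CA mutants, 15.7, 20.0, 37.3 and 14.6 in HER2 mutants and 30.7, 77.2, 48.4, 28.6 and 31.2 in double mutants. All double mutants lay above all WT samples, with replicate 2 far above the rest. Fzd4 rose by 1.30 in double mutants against WT (SE 0.36 and adjusted p 0.0293 in edgeR). That call was lost without any WT replicate or double mutant replicate 2 or 3 (adjusted p 0.0509 to 0.119), and the value was 0.99 without double mutant replicate 2. Fzd7, the highest receptor, averaged 449.6 ± 17.9 CPM (SD, n = 3) in WT, 333 ± 42.5 in PIK3CA mutants (n = 4), 309 ± 106 in HER2 mutants (n = 4) and 274 ± 78.3 in double mutants (n = 5). Its log2 fold change in double mutants was -0.71 (SE 0.23 and adjusted p 0.0537 in edgeR), with all double mutants below all WT samples. Lrp5 was at 588 ± 68.4 CPM in WT and Lrp6 at 355 ± 33.7 CPM (SD, n = 3). Their log2 fold changes against WT lay between -0.36 and 0.06 over the 3 mutant genotypes. Fzd10, at 0.240 to 0.434 CPM in WT, had log2 fold changes of -2.13 in PIK3CA, -2.66 in HER2 and -3.01 in double mutants (edgeR adjusted p 0.272, 0.108 and 0.0531), with all mutants below WT and several at 0 counts. Fzd10 had enough counts to be tested only through the WT samples. A lower level in the mutants was therefore bound to appear, and these p-values and the separation are no separate support for it. Of the other 7 Frizzled genes, Fzd8 was lower in every mutant sample than in every WT sample, with log2 fold changes of -0.29, -0.67 and -0.48, and Fzd9 was so in PIK3CA mutants (-1.37, edgeR adjusted p 0.168), without a call. Fzd1 was at 22.3 to 45.03 CPM over all samples, Fzd2 at 12.9 to 40.3, Fzd3 at 4.01 to 36.5, Fzd5 at 27.4 to 114 and Fzd6 at 41.7 to 89.6 CPM, and the log2 fold changes of these 5 against WT lay between -0.46 and 0.50.

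Dkk3 was the inhibitor family member that changed, and it changed in HER2 mutants. Dickkopf proteins are secreted, and Dkk1 and Dkk2 bind Lrp5 and Lrp6, while Dkk3 is a divergent member whose effect on Wnt signalling depends on the cell type. Dkk3 (chromosome 7, 112116017 to 112159057) was at 28.8, 45.1 and 17.5 CPM in WT, 37.8, 36.5, 24.1 and 33.3 in PIK3CA mutants, 2.07, 3.78, 7.41 and 5.02 in HER2 mutants and 15.4, 10.0, 50.8, 19.4 and 24.5 in double mutants. Each HER2 mutant lay below each of the other 12 samples, and the other genotypes overlapped. Dkk3 fell by 2.74 against WT (6.67-fold lower, SE 0.49 and adjusted p 0.0036 in edgeR) and by 2.85 against PIK3CA mutants (7.22-fold lower, SE 0.48 and adjusted p 0.00477 in edgeR), and no alternative ended these calls. In double against HER2 mutants it rose by 2.40 (SE 0.46 and adjusted p 0.014 in edgeR), a call lost in a fit restricted to both genotypes (adjusted p 0.0873) and with a replicate block (0.0704, and 0.0669 with the GC and length correction). In double mutants against WT its log2 fold change was -0.34 (95% interval -1.23 to 0.55, edgeR adjusted p 0.676). Dkk2 was at 1.94 to 3.52 CPM in WT and at 0.021 to 0.707 CPM in double mutants, and its log2 fold change of -2.63 was not called (SE 1.34 and adjusted p 0.221 in edgeR).

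Some markers of basal and myoepithelial cells, the outer layer of the mammary duct, were low in HER2 mutants, as were Lgr5 and Dkk3. Of the 10 basal markers, 4 fell in HER2 mutants against WT (Krt5, Mylk, Myh11 and Cnn1) and 5 against PIK3CA mutants, while 2 (Krt5 and Mylk) rose in double against HER2 mutants. Of all tested genes, 5.63%, 2.2% and 1.03% were called in the same directions. In HER2 mutants against WT, 8 of the 10 had a negative and 2 a positive log2 fold change. Krt17 had 647, 1009 and 332 counts in WT and 5591, 908, 1129 and 584 in HER2 mutants, and was not lower. Krt5, a keratin of basal cells, was at 44.8, 14.1, 52.0 and 25.6 CPM in HER2 mutants and at 69.0 to 346 CPM in double mutants, and it fell by 2.89 in HER2 mutants against WT (SE 0.57 and adjusted p 0.00592 in edgeR). The summed level of the 10 markers was 516 to 1060 CPM in WT, 526 to 1396 in PIK3CA mutants and 566 to 1043 in double mutants. These sums overlapped, although Lgr5 was below every WT sample in all PIK3CA and double mutants. In HER2 mutants the sum was 975.0, 266, 271 and 391 CPM in the order of the replicates. HER2 mutant replicate 1 therefore stood apart in the sum, of which Krt14 made up 507 CPM and Trp63 165 CPM. The 4 markers that fell against WT were at 44.8 (Krt5), 2.02 (Mylk), 0.811 (Cnn1) and 1.36 CPM (Myh11) in that replicate. They were called with that replicate in the group, so their low level there is no separate support. Krt14 and Krt17 had 26898 and 5591 counts there, above all WT samples (7311 to 15290 and 332 to 1009 counts). Acta2 (5203 counts, 2896 to 6594 in WT), Trp63 and Tagln were within the WT range, and Oxtr was below it. The Lgr5 (0.377 CPM) and Dkk3 (2.07 CPM) levels of HER2 mutant replicate 1 were the lowest of all 16 samples. Without that replicate, Lgr5 had a log2 fold change of -4.59 (edgeR adjusted p 0.00516) and Dkk3 of -2.50 (adjusted p 0.00759) against WT. Without it, 7 members were called in HER2 mutants against WT, 6 in double against HER2 mutants and 9 in HER2 against PIK3CA mutants. None of the 10 markers was at 0 in a HER2 mutant, the lowest being Tagln, Cnn1 and Myh11 at 0.401 to 1.37, 0.655 to 1.72 and 0.962 to 1.45 CPM, and the part of basal cell number in these results was not tested.

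**Figure D4:**
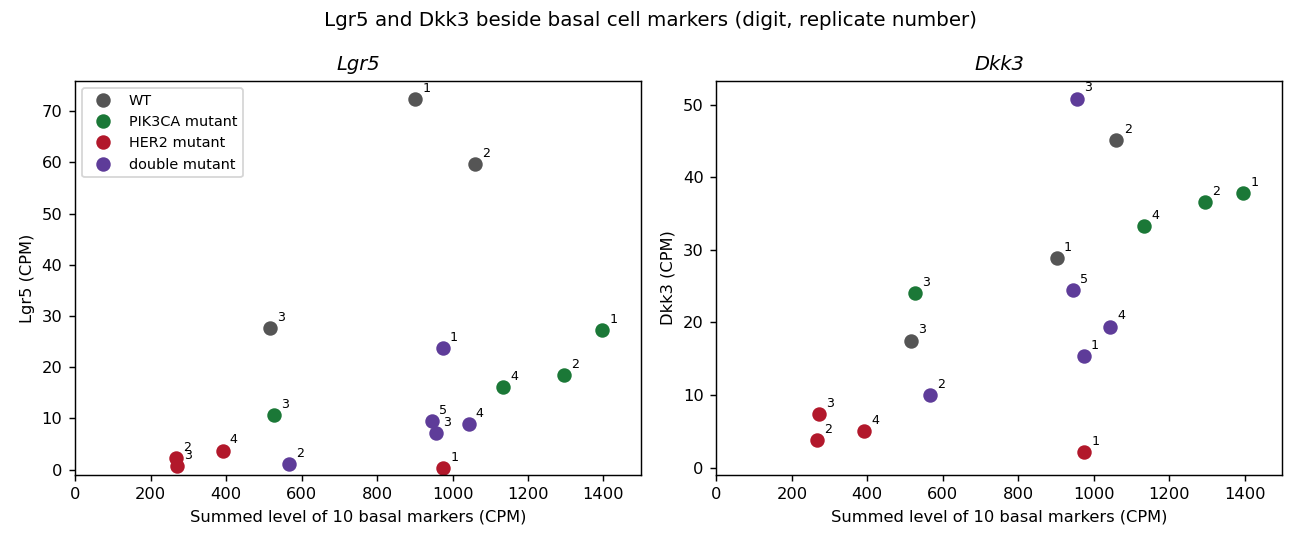
Level of Lgr5 (left) and Dkk3 (right) in each sample (y axes, CPM) against the summed level of 10 basal cell markers (x axes, CPM), with colours for genotypes and digits for replicates. HER2 mutants 2 to 4 are low on both axes, while HER2 mutant 1 has the lowest Lgr5 and Dkk3 of all samples and a marker sum of 975.0 CPM, of which Krt14 and Trp63 make up 507 and 165 CPM while its Krt5 is at 44.8 CPM.

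Neither axin gene nor Rnf43 or Znrf3, which are feedback genes of canonical signalling or part of its machinery, was called in any pair. Axin2, the most used readout of beta-catenin activity, was low throughout, at 2.45, 1.32 and 0.801 CPM in WT, 1.64, 1.38, 0.531 and 1.61 in PIK3CA mutants, 2.55, 3.35, 1.67 and 2.60 in HER2 mutants and 0.585, 0.587, 3.51, 1.87 and 1.42 in double mutants. Each mutant genotype overlapped WT, and all HER2 mutants lay above all PIK3CA mutants, a difference that was not called (log2 fold change 0.97, edgeR adjusted p 0.341). The log2 fold changes of Axin2 against WT were -0.23 (95% interval -1.36 to 0.89), 0.74 (-0.40 to 1.88) and 0.07 (-1.01 to 1.14) in PIK3CA, HER2 and double mutants, with edgeR adjusted p of 0.891, 0.456 and 0.957. The intervals leave room for changes of more than 1 log2 unit in either direction for double mutants, and the sign in PIK3CA and double mutants turned under some alternatives. Axin1, the scaffold of the beta-catenin destruction complex, differed by at most 0.23 on the log2 scale from WT and was not called. Rnf43 was at 63.5 ± 3.86 CPM (SD, n = 3) in WT, 84.6 ± 7.62 in PIK3CA mutants (n = 4), 57.4 ± 19.8 in HER2 mutants (n = 4) and 70.0 ± 12.7 in double mutants (n = 5). All PIK3CA mutants lay above all WT samples, but the log2 fold change of Rnf43 of 0.41 was not called (SE 0.22 and adjusted p 0.376 in edgeR). Znrf3 was at 31.2 ± 1.05, 30.9 ± 2.32, 31.8 ± 6.85 and 27.2 ± 2.29 CPM in the same order. All double mutants lay below all WT samples for Znrf3, without a call (log2 fold change -0.20, edgeR adjusted p 0.406).

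Of the TCF/LEF genes, which encode partners of beta-catenin and are among its targets, Tcf7 was called in 1 pair and Lef1 in none. Tcf7 (chromosome 11, 52252371 to 52283014) was at 14.0, 21.1 and 11.3 CPM in WT, 24.8, 26.9, 22.5 and 25.6 in PIK3CA mutants, 15.4, 34.5, 29.95 and 17.1 in HER2 mutants and 24.8, 30.8, 23.3, 33.5 and 28.0 in double mutants. PIK3CA and double mutants lay above all WT samples. Tcf7 rose by 0.86 in double mutants (SE 0.26 and adjusted p 0.0419 in edgeR), and its log2 fold changes of 0.69 in PIK3CA mutants (adjusted p 0.188) and 0.65 in HER2 mutants (adjusted p 0.14) were not called. The call was lost without WT replicate 1 or 3, PIK3CA mutant replicate 1, 3 or 4 or double mutant replicate 2, 4 or 5 (adjusted p 0.0534 to 0.223) and with library size as the only scaling (0.0681). Lef1 (chromosome 3, 131110471 to 131224356) was at 2.74, 19.1 and 6.92 CPM in WT, 1.03, 0.868, 0.576 and 0.679 in PIK3CA mutants, 1.02, 1.08, 10.3 and 1.86 in HER2 mutants and 0.301, 0.0839, 4.10, 2.36 and 1.38 in double mutants. The 4 PIK3CA mutants lay below all WT samples and close together, while HER2 mutant replicate 3 stood far above its group. The log2 fold change of Lef1 was -3.59 in PIK3CA mutants (SE 1.04 and adjusted p 0.0652 in edgeR), -1.42 in HER2 mutants (adjusted p 0.387) and -2.54 in double mutants (adjusted p 0.0895). The first was called by DESeq2 (adjusted p 0.0152), without the filter on low counts (0.0387), in a fit restricted to both genotypes (0.00518) and without HER2 mutant replicate 3 (0.0321) or double mutant replicate 2 (0.0357). WT replicate 2, the highest for Lef1, had the highest fibroblast sum (2001 CPM), whereas HER2 mutant replicate 3, the next highest for Lef1, had a fibroblast sum of 51.1 CPM and HER2 mutant replicate 4, with Lef1 at 1.86 CPM, had 642 CPM. The part of these markers in the result was not tested.

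**Figure D5:**
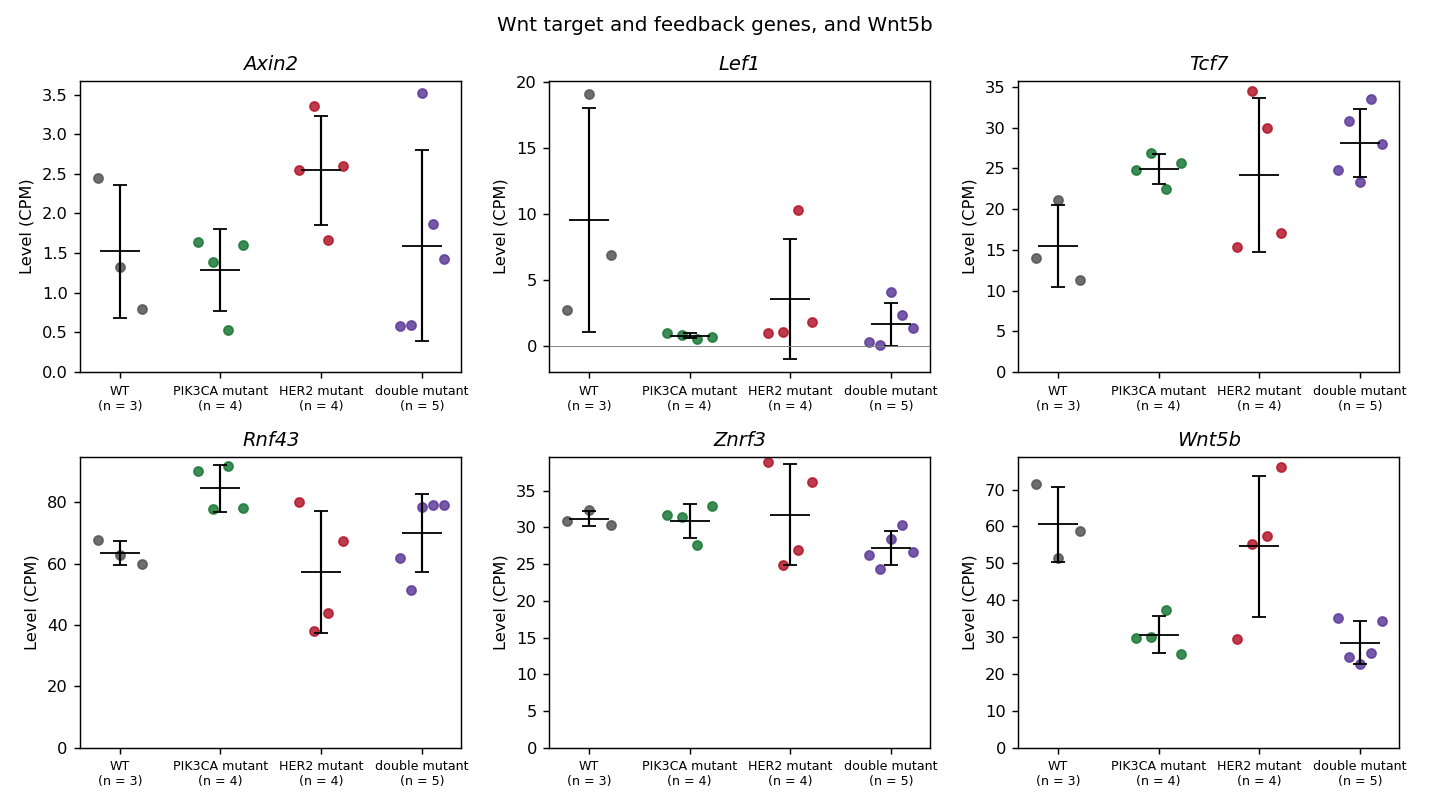
Level of Axin2, Lef1, Tcf7, Rnf43, Znrf3 and Wnt5b in every sample (points, y axis, CPM, linear), with the mean (long bar) and SD (error bar) of each genotype (x axis). Axin2 overlaps WT in each mutant genotype, all double mutants lie below WT for Znrf3, Tcf7 is above WT in PIK3CA and double mutants, and Wnt5b is below WT in both.

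A list of 55 further pathway genes, from Wnt secretion to nuclear cofactors, gave 54 tested genes. In PIK3CA mutants against WT 4 were called (2 higher, 2 lower), in HER2 mutants 8 (2 higher, 6 lower) and in double mutants 7 (3 higher, 4 lower), where 4.52%, 10.4% and 11.8% of all genes were called. Dkkl1, a Dickkopf-like gene, fell in all of these, with log2 fold changes of -2.68, -3.39 and -2.44 (edgeR adjusted p 0.00738, 0.002 and 0.00432). It was at 18.0, 5.78 and 20.8 CPM in WT and at 0.450 to 3.88 CPM in the 13 mutant samples. Tle1, a corepressor that binds TCF/LEF factors, fell in all of them too, with log2 fold changes of -0.86, -1.10 and -1.14 (edgeR adjusted p 0.0176, 0.00313 and 0.000967). Its level was 156 to 166 CPM in WT and 49.9 to 98.955 CPM in the mutants. Its relative Tle3 rose by 0.64 in PIK3CA mutants (edgeR adjusted p 0.0209), with a log2 fold change of -0.02 in HER2 and 0.25 in double mutants. Ror1, a receptor of Wnt5a, rose by 1.55 in PIK3CA and 1.48 in double mutants (edgeR adjusted p 0.0154 and 0.00875), and its value of 1.03 in HER2 mutants was not called (adjusted p 0.0628). Sfrp1, a secreted Wnt antagonist, fell by 1.25 in HER2 mutants (edgeR adjusted p 0.0266), from 228 to 267 CPM in WT to 49.5 to 148 CPM. Apcdd1, a membrane antagonist, fell by 2.0 in HER2 mutants and by 1.66 in double mutants (edgeR adjusted p 0.022 and 0.0318), but without WT replicate 2 these values were -1.18 and -0.83 and not called (adjusted p 0.155 and 0.289). Vangl1, a planar polarity protein, fell by 0.63 and the kinase gene Csnk1d rose by 0.60 in HER2 mutants (edgeR adjusted p 0.0164 and 0.0257). Vangl2 rose by 0.55 and the nuclear cofactor Pygo1 fell by 2.74 in double mutants (edgeR adjusted p 0.0351 and 0.0303). Of these 16 calls against WT that are named, 12 were lost without WT replicate 1, 2 or 3, with adjusted p up to 0.289, and those of Tle1 in HER2 and double mutants and of Dkkl1 in double mutants held in every alternative. Single mutant samples that ended a call were PIK3CA mutant replicates 1, 2 and 4 for Tle1 and 1 and 3 for Tle3, HER2 mutant replicate 1 for Sfrp1 and 3 for Apcdd1, and double mutant replicates 1, 2, 4 and 5 for Apcdd1, 2, 3 and 5 for Pygo1 and 4 and 5 for Vangl2. The medians of the list against WT were 0.02, -0.21 and -0.09, beside -0.03, 0.03 and 0.01 for all genes.

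Among pairs of mutants, 8 genes of that list were called in HER2 against PIK3CA mutants (2 higher, 6 lower). In double against HER2 mutants 2 were called (1 higher, 1 lower). Of all genes, 4.41% (2.21% higher and 2.2% lower) and 2.5% (1.03% higher and 1.47% lower) were called in these pairs. Tcf7l1, a TCF factor that mostly represses, was called in both: it rose by 1.56 in HER2 against PIK3CA mutants (SE 0.30 and adjusted p 0.00983 in edgeR) and fell by 1.65 in double against HER2 mutants (SE 0.28 and adjusted p 0.00751 in edgeR). It was at 82.0, 23.6, 33.2 and 63.6 CPM in HER2 mutants and at 13.3 to 20.2 CPM in the 9 samples of the other mutant genotypes, so all HER2 mutants lay above them. HER2 mutants overlapped WT, however. WT held 1081, 1551 and 1323 counts of Tcf7l1, and HER2 mutants 4350, 1224, 1494 and 3105, with HER2 mutant replicate 2 below WT replicate 2. The calls of Tcf7l1 were not examined under the alternatives. Tcf7l1 was singled out after its values were seen. No gene of the list was called in double against PIK3CA mutants by edgeR, although 6 had an unadjusted p under 0.05.

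Of 18 genes that are often used as beta-catenin targets and are no members, 17 were tested. In PIK3CA mutants against WT 3 rose and none fell, in HER2 mutants 3 rose and 1 fell, and in double mutants 4 rose and 1 fell. Of all genes, 1.49% were called higher and 3.03% lower in the first of these comparisons, 4.75% and 5.63% in the second, and 5.03% and 6.72% in the last. Tnfrsf19, a receptor of the tumor necrosis factor family, was at 0.245, 0.200 and 0.0667 CPM in WT and at 3.02 to 44.5 CPM in the mutants, and it rose by 4.52, 7.10 and 5.26 (edgeR adjusted p 0.00286, 0.000344 and 0.000586). Ccnd1, the gene of cyclin D1, rose by 1.71, 1.64 and 2.40 in PIK3CA, HER2 and double mutants (edgeR adjusted p 0.0256, 0.0208 and 0.00165), and by 1.05 in HER2 mutants without their replicate 1 (adjusted p 0.0373). The first 2 calls of Ccnd1 were lost without WT replicate 1 or 3 and, in PIK3CA mutants, without replicate 1, 2 or 4 (adjusted p up to 0.168). Myc rose by 1.67 in HER2 mutants and 1.25 in double mutants (edgeR adjusted p 0.00504 and 0.0148), and Ephb2 by 2.64 in PIK3CA and 1.95 in double mutants (adjusted p 0.0156 and 0.0317). Without WT replicate 1 or 3 the calls of Ephb2 and that of Myc in double mutants were lost (adjusted p up to 0.147), and that of Ephb2 in double mutants also without double mutant replicate 2 or 3. The 1 lower gene was Apcdd1, which the list of further pathway genes also holds. Other pathways than Wnt are known to control Ccnd1 and Myc. Notum, a feedback inhibitor that strips the lipid from Wnt ligands, stayed at or under 0.267 CPM and was not called, and Sp5 had too few counts to be tested. The medians of the list against WT were 0.59, -0.02 and 0.44 in the same order.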

How the data were processed

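RNA of 16 organoid samples was extracted with a column kit and made into libraries with a SMARTER mRNA kit, per the labels' protocols. Per the submitters' processing notes, the tools were bcl2fastq 2.20, STAR 2.0.4b, Subread, featureCounts 1.4.5 and DESeq2 1.33.5, and the build was mm10. The notes give the tools without roles, and strandedness and annotation version are not given in the sources used here. The authors deposited whole-number counts per Ensembl gene, from which all levels and tests come. They also deposited a signal table of normalized counts, which equalled these counts divided by median-of-ratios size factors within a relative difference of 5.49e-10.

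Of 55774 entries, 287 repeats of an identifier were dropped, leaving 55487. Gene names and classes were those given with the deposited counts. Exon lengths, GC content, positions and overlaps came from GENCODE M21 (GRCm38), which matched 55227 identifiers. Levels are CPM on TMM-scaled library sizes, with totals of 45545182 to 64168308 counts. Intervals and floors cover counting error only, or 1.96 SE where given for a fold change. The filter filterByExpr left 24252 genes. One edgeR fit (4.0.16) covered all 16 samples with genotype as the only term, and Benjamini-Hochberg adjustment ran over all tested genes with a threshold of 0.05. It was tested on simulated data. SE is the absolute log2 fold change divided by the square root of the F statistic.

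Alternatives were median-of-ratios, upper-quartile and library size scaling, no filter, DESeq2 (1.42.0), limma (3.58.1) on log2 of the normalized signal plus 1, a fit of only the genotypes compared, a replicate block, a GC and length offset, both together, and leaving out each sample. The members and lists were chosen with earlier results of these data known. Members called in any pair, up to 6 per direction, and Axin2, Lef1, Tcf7, Lgr5, Rspo1, Wnt4 and Wnt5a were given in full. Of the other lists, up to 6 called genes with the lowest p in each comparison with WT were named.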

Additional observations from a re-analysis of the deposited data

Results flagged for a closer look

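Lef1 was at 10.3 CPM in HER2 mutant replicate 3, and the nearest of the other 3 HER2 mutants was at 1.86 CPM. The gap took up 0.909 of the range of the genotype, above the critical value of Dixon's test for 4 samples. Of 42 groups of 4 or 5 samples examined, this was the 1 that passed, and chance marks about 5 percent of such groups. Without that replicate, Lef1 in PIK3CA mutants against WT had an edgeR adjusted p of 0.0321 in place of 0.0652.

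Dkkl1 had an interaction estimate of 3.63 on the log2 scale (SE 0.71, edgeR adjusted p 0.0242): both single mutants and the double mutants were lower than WT, and the double mutants were less low than the sum of the single changes. That call was lost with a replicate block and without WT replicate 1 or 3 or PIK3CA mutant replicate 2, 3 or 4 (adjusted p up to 0.0907). Tnfrsf19 had an interaction estimate of -6.35 (SE 0.93, edgeR adjusted p 0.0071), with each mutant genotype above WT and the double mutants below the sum of the single changes. No alternative ended the call of Tnfrsf19. WT levels of Tnfrsf19 were at most 0.245 CPM, so the size of these fitted values depends on few counts.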

How the results depend on the processing

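The counts of members called depended on the processing more than most single values. In PIK3CA mutants against WT the count of 1 became 2 without the filter, 4 with DESeq2, 9 in a fit of only the genotypes compared and 0 with the GC and length offset, and ranged from 0 to 2 when single samples were left out (0 without WT replicate 1 or 3 or PIK3CA mutant replicate 2 or 4, and 2 without HER2 mutant replicate 1 or 3 or double mutant replicate 2). In HER2 mutants against WT the count of 6 became 3 in a fit of only the genotypes compared, and ranged from 3 (without WT replicate 3) to 8 (without HER2 mutant replicate 4) over single removals. In double mutants against WT the count of 5 became 9 with DESeq2, and ranged from 1 to 8 over single removals: 2, 3 and 1 without WT replicate 1, 2 and 3, 3 without PIK3CA mutant replicate 2, 8 without HER2 mutant replicate 1, and 3, 3, 2 and 2 without double mutant replicate 2, 3, 4 and 5. In double against HER2 mutants the count of 5 became 1 in a fit of only the genotypes compared and ranged from 3 to 6 (3 without WT replicate 3, PIK3CA mutant replicate 2 or double mutant replicate 3, 4 or 5). In HER2 against PIK3CA mutants the count of 6 ranged from 4 to 9 (9 without HER2 mutant replicate 1). The interaction gave 0 members, 1 without the filter and 4 with DESeq2, and 0 to 1 over single removals (1 without HER2 mutant replicate 4 or double mutant replicate 2). It could not be fitted with only the genotypes compared. With the replicate number as a block, the count in double mutants against WT was 3, and 2 once that offset was added to it; in double against HER2 mutants it was 2 and 2. Deviations of samples with the same number had a mean correlation between -0.0521 and 0.157 over the 6 pairs of genotypes, and the labels do not say that a number marks a shared animal or day, so the samples are taken to share only a number. The sign turned for 4 uncalled values, and the cause was not tested. Axin2 in PIK3CA mutants ranged from -0.54 to 0.29 over single removals (0.29 without WT replicate 1, 0.02 without PIK3CA mutant replicate 3). Axin2 in double mutants was -0.013 with library size only and -0.11 with limma, and ranged from -0.45 to 0.59 (-0.028 without WT replicate 2, -0.24 without WT replicate 3, -0.45 without double mutant replicate 3). Wnt5a in PIK3CA mutants was -0.085 with library size only and -0.055 with the replicate block, and ranged from -0.19 to 0.34 (-0.027 without WT replicate 1, -0.19 without WT replicate 3, -0.065 without PIK3CA mutant replicate 3). Wnt5a in HER2 mutants ranged from -0.22 to 0.50 (-0.029 without WT replicate 3, -0.22 without HER2 mutant replicate 1). Of the values of named genes under an alternative, 1524 kept direction and side of the threshold, 192 lost a call, 10 gained one and 14 turned. Library size only moved the median log2 fold change of all genes in PIK3CA mutants against WT from -0.03 to -0.13, and the split of all genes called in HER2 against PIK3CA mutants from 536 higher and 533 lower to 669 higher and 387 lower. Depth limits Wnt7a, Rspo1, Fzd10 and the 7 untested members, whose counts were near 0 in several samples.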
